A study of Mus musculus with 12 samples.

Results

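The cytotoxic-like cluster of the spleen at 28 weeks held 1027 of the 6481 cells of that library (15.8%, exact binomial 95% interval 14.97 to 16.76%) and belonged to a series of 20510 cells. Its members were the cells that the deposited cluster table of the 28-week spleen placed in cluster 2. PD-1+CD44+CD8+ T cells had been sorted from female NZB/W F1 mice, a cross that develops lupus-like nephritis, and their 5′ transcripts were counted droplet by droplet. The other libraries came from spleen at 12 weeks (6894 cells) and kidney at 28 weeks (7135 cells). No treatment is given for any of the 3 groups, which hold no other strain and no PD-1- fraction, and the number of mice behind each library was not given. The 28-week spleen samples carried 28 weeks in their titles and 12 weeks in their age field, and the title was followed. Kidney cells had passed through collagenase digestion and a density gradient, a step that is not described for spleen. Each table pooled the 4 samples of its group, whose titles differ in an L number that may be a sequencing lane, with no map from cells to samples, so every group was 1 library, and all values below are descriptions with no test and no p-value. Intervals are exact 95% Poisson or binomial intervals that cover counting error only.

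CD8+ T cells that have met antigen can kill target cells by releasing granules that hold perforin and granzymes, or by showing Fas ligand at the surface. They also secrete the chemokines CCL3, CCL4 and CCL5, which recruit leukocytes. PD-1 is an inhibitory receptor that appears on activated T cells and persists on chronically stimulated ones, and in lupus nephritis CD8+ T cells enter the kidney.

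The 28-week spleen library held 32023473 unique molecular identifiers (UMIs, 1 for each captured transcript molecule) in 11 clusters, against 34742303 in the 12-week spleen and 29937384 in the kidney. Cluster 2 contributed 4745397 UMIs, or 14.8% of its library, with 4621 UMIs per cell where the clusters ranged from 1020 in cluster 8 to 12209 in cluster 6. At least 1 UMI was found in cluster 2 for 13015 of the 16194 genes in the table. Clusters 8 and 11 had few UMIs per cell, clusters 8 and 10 carried transcripts of B cells, myeloid cells or red cells, and cluster 6 carried proliferation genes. Cluster 9 had none of these traits but was the nearest to cluster 2 by the 7 markers named below. The values in the setting without clusters 6, 8, 9, 10 and 11 are given beside many of the named genes and lists that they move across 2-fold or across 0. A gene or list with no second value may also have moved. Between 52 and 66 cell barcodes were shared by each pair of libraries, and cluster 2 shared 8 with the 12-week spleen and 7 with the kidney.

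Levels are given as UMIs per 1000000 UMIs of a cluster (CPM). The genes of the sort were present in cluster 2, with 602 CPM of *Cd8a*, 1320 CPM of *Cd8b1*, 60.9 CPM of *Cd44* and 57.3 CPM of *Pdcd1*, which encodes PD-1. *Cd4* had no UMI in cluster 2. A count of 0 allows up to 0.632 CPM at this depth, taken as 3 UMIs.

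The 7 cytotoxic markers were *Ccl3*, *Ccl4* and *Ccl5* (chemokines), *Gzmb* and *Gzmk* (granzymes), *Fasl* (Fas ligand) and *Klrk1* (the activating receptor NKG2D). On GRCm38 with GENCODE M21, all 3 chemokine genes lie on chromosome 11, *Ccl5* at 83525778 to 83530518, *Ccl3* at 83647844 to 83649355 and *Ccl4* at 83662584 to 83664683. *Gzmb* lies on chromosome 14 at 56258838 to 56262260, *Klrk1* on chromosome 6 at 129610323 to 129623864 and *Fasl* on chromosome 1 at 161780689 to 161788495. For 5 of the 7 markers a promoter was in the RefSeq table, and those that held a searched motif are shown to place the regulatory sequence beside the expression values. The runs below are the 250 bases before the annotated start, on the gene's own strand, from RefSeq on GRCm38.p6, at chr14:56262335-56262584 for *Gzmb*, chr13:113180966-113181215 for *Gzmk*, chr11:83649379-83649628 for *Ccl3* and chr6:129623865-129624114 for *Klrk1*, all minus strand. Capitals mark TGTGGT (the core bound by Runx factors), TGANTCA (AP-1) or GGTGTGA (T-box factors), searched on both strands, and no marked pair overlaps.
Gzmb: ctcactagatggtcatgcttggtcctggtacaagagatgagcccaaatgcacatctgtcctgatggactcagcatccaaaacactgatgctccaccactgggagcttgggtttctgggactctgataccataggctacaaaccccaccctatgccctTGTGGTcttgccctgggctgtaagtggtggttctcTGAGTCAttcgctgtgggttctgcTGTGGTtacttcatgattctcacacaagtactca
Gzmk: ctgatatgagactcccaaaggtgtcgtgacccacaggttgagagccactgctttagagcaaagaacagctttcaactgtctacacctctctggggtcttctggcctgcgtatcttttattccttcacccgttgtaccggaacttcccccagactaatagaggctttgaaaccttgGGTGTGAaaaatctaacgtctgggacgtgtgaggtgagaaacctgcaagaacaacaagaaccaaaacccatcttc
Ccl3: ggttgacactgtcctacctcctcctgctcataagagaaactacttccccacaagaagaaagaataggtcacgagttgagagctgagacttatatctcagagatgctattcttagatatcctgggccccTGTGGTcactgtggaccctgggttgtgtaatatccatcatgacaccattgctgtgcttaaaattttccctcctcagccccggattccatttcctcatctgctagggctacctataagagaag
Klrk1: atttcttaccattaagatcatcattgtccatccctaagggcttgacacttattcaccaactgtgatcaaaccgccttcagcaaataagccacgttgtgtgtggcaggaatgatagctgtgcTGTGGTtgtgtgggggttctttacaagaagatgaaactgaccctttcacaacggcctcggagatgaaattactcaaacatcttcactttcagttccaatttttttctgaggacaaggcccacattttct

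*Gzmb* held TGTGGT with its first base 93 and 34 bases before the start and TGANTCA 58 bases before it. *Gzmk* held GGTGTGA at 75 bases, *Ccl3* held TGTGGT at 122 bases and *Klrk1* held TGTGGT at 129 bases. Among 32851 promoter windows of the same length, 14.0% held TGTGGT, 6.75% held TGANTCA and 3.33% held GGTGTGA. The *Fasl* window, chr1:161788496-161788745, had none of these letters. A match describes letters in the window and not a bound site.

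All 7 markers were higher in cluster 2 than in the other cells of the library combined, which gives the label its basis and no further support, since these cells were clustered on their own transcripts. *Ccl4* reached 322 CPM (306 to 339) in cluster 2 against a lowest of 13.9, a median of 49.3 and a highest of 316 CPM (265 to 373, cluster 9) in the other 10 clusters. *Ccl5*, the most abundant of the 7, stood at 12039.7 CPM or 55.6 UMIs per cell, against a lowest of 637, a median of 2424 and a highest of 18451 CPM (cluster 9) elsewhere. The chemokine genes therefore reached similar or higher levels in cluster 9, and cluster 2 ranked first for *Ccl4* by less than its interval.

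Granzyme B is the protease that activates caspases in the target cell. *Gzmb* was at 96.3 CPM (87.7 to 106) in cluster 2, at 0 to 72.2 CPM in the other 10 clusters (median 8.96), and highest among them in cluster 11 (44.1 to 112). *Gzmk*, a granzyme of pre-effector and tissue T cells, was at 360 CPM (343 to 377), below 401 CPM in cluster 9 and 444 CPM in cluster 11 (369 to 530). For *Gzmk* the intervals of cluster 2 and cluster 9 (343 to 465) overlapped. *Ccl3* was at 70.0 CPM (62.6 to 77.9) beside 77.8 CPM (53.9 to 109) in cluster 9 and a median of 6.87 CPM in the others.

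*Klrk1* ranked first at 101 CPM (92.3 to 111) with a median of 28.2 and a highest of 65.0 CPM (38.5 to 103) elsewhere, and the intervals of these leading clusters overlapped. *Fasl* ranked first at 49.5 CPM (43.4 to 56.3), next to 46.9 CPM in cluster 11, 41.2 CPM in cluster 9 and a median of 10.2 CPM over the 10 clusters. The mean standardised level of the 7 markers, which sets each gene on a common scale over the 11 clusters, was 1.54 in cluster 2, 1.30 in cluster 9 and 0.915 in cluster 11. These were the 3 highest scores. Cluster 11 had 215 cells, 1288 UMIs per cell and genes of other programs, so its levels rest on few molecules. Of its UMIs 6.64% were mitochondrial and 10.8% ribosomal protein, against 0.929% and 31.1% in cluster 2. The part of this composition in its CPM was not tested.

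**Figure D1:**
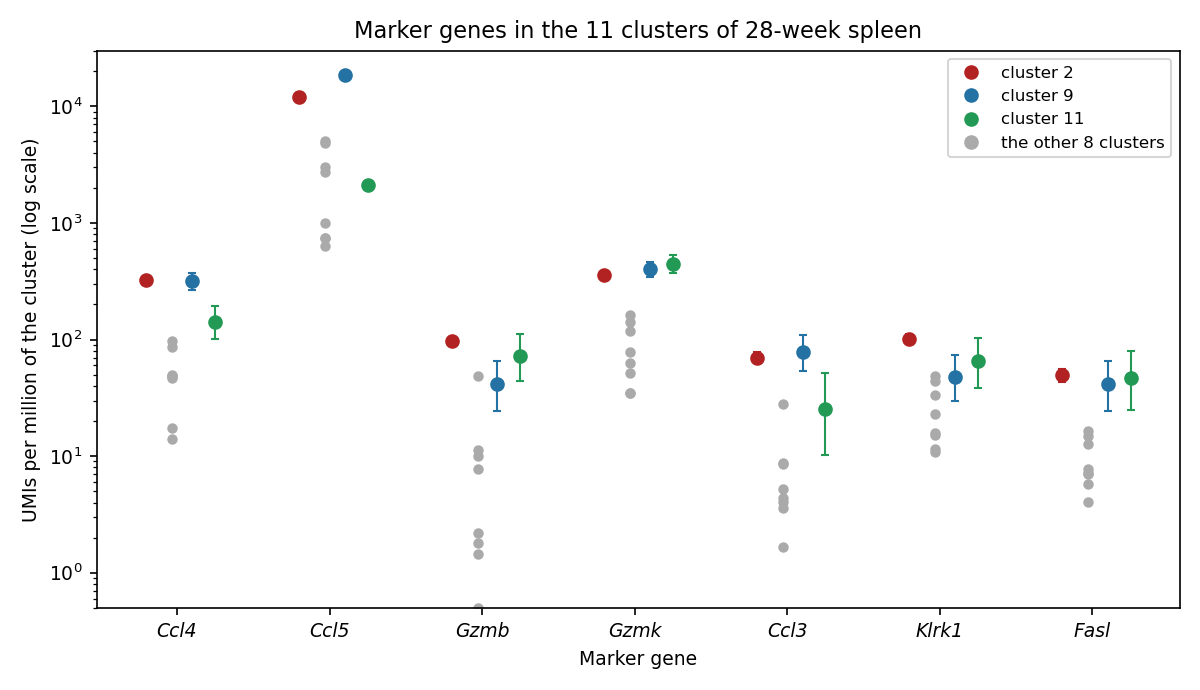
Levels of the 7 cytotoxic markers (x axis) in the 11 clusters of the 28-week spleen, in CPM on a log axis. Each point is 1 cluster, clusters 2, 9 and 11 are coloured with 95% Poisson intervals and a value of 0 sits at the foot of the axis. Cluster 2 is at or near the top for each marker, with cluster 9 above it for *Ccl5*, *Gzmk* and *Ccl3*.

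Differences between cluster 2 and a second population are log2 ratios of CPM after 10 CPM was added to both sides, which understates the ratio of low genes. A gene was counted as higher or lower past 2-fold when this ratio was at least 1 in size. Against all other cells of the 28-week spleen, 7406 genes reached 10 CPM on either side, 29 of them (0.392%) were higher and 100 (1.35%) were lower. Of the 29, 27 were not receptor segments. Cluster 2 had the highest level of the 11 clusters for 15 of the 29 and the second highest for 12, and for 23 the highest of the other clusters was 9 or 11. Of the 100 lower genes, 95 were highest in cluster 6, 8, 10 or 11, and 23 of the 100 were antigen receptor or immunoglobulin segments. The median over all genes tested was 0.03.

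Without clusters 6, 8, 9, 10 and 11 among the other cells, 33 genes were higher in cluster 2, 24 of which were also higher against all other cells. Only 14 were lower, 11 of them also lower against all. In that setting *Gzmb* had 96.3 against 5.09 CPM (log2 ratio 2.82), *Ccl4* 322 against 42.1 CPM (2.67) and *Ccl3* 70.0 against 5.04 CPM (2.41). These 3 markers had larger ratios than against all other cells, where *Ccl4* had 2.23 and *Ccl3* 1.87. The other 4 had smaller ones, with 2.04 for *Ccl5* (2.21 against all), 1.72 for *Gzmk* (1.76), 1.44 for *Klrk1* (1.58) and 1.52 for *Fasl* (1.53). Clusters 1, 3, 4, 5 and 7 made up the other cells in this setting. Cluster 9 was left out because its marker score was the next highest, and cluster 11 ranked after it. Marker ratios in this setting therefore depend on leaving out clusters high in the same genes and give no further support to the label.

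**Figure D2:**
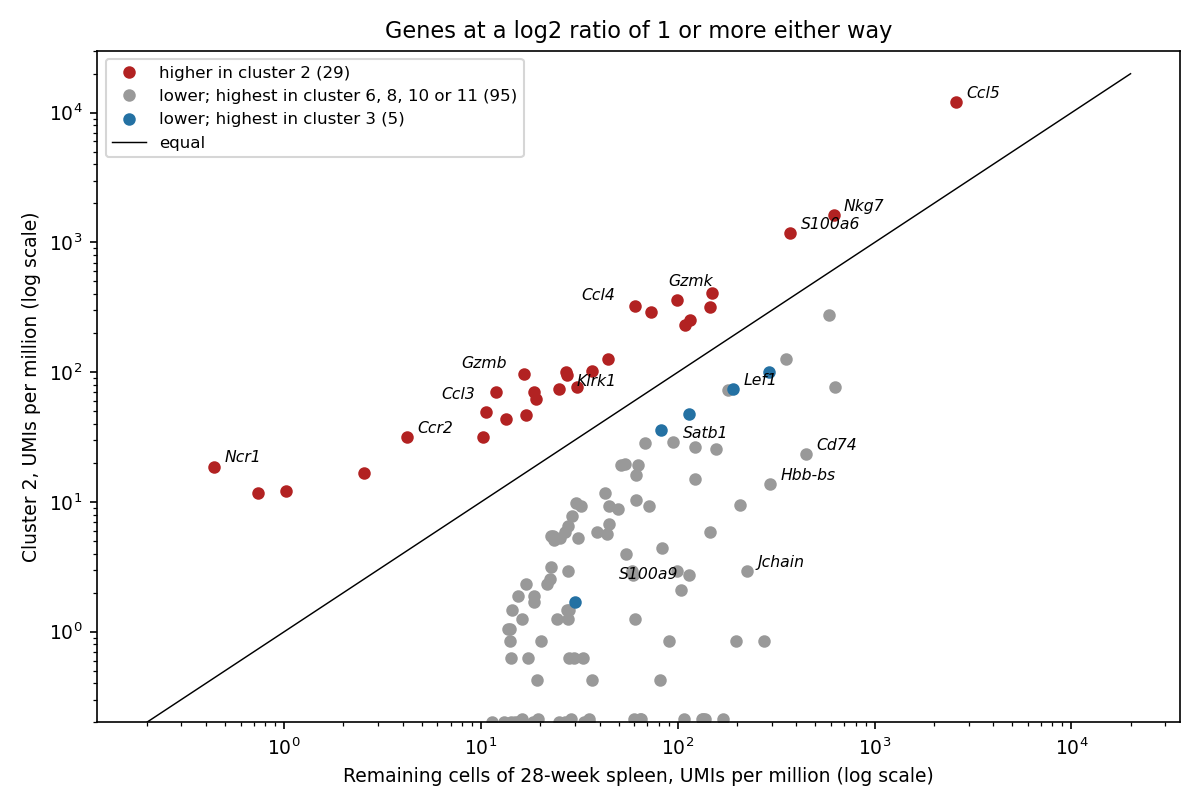
CPM in the other cells of the 28-week spleen (x axis, log) against CPM in cluster 2 (y axis, log) for the genes past 2-fold, with 0 drawn at the foot of an axis. The 29 higher genes lie above the diagonal, and colours separate the 95 lower genes that are highest in cluster 6, 8, 10 or 11 from the 5 that are highest in cluster 3.

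Of the 12 tested genes of the granule and death ligand list, all had ratios above 0, 4 were past 2-fold and the list median was 0.83. The 4 were *Nkg7* and the markers *Gzmb*, *Gzmk* and *Fasl*, which give no further support to the label. *Nkg7*, whose product is needed for granule release, was at 1625 CPM (1589 to 1661) against 618 CPM, with 1646 CPM in cluster 9. *Gzma* was at 137 against 64.5 CPM (0.98), just short of 2-fold on this scale. *Prf1*, the pore-forming perforin, was at 89.6 against 44.4 CPM (0.87) and was higher in cluster 11 at 123 CPM. Perforin and granzyme A therefore differed less between cluster 2 and the other cells than granzyme B did.

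Among 5 chemokine genes tested, 3 were higher (the markers) and *Xcl1* was lower at 72.5 against 179 CPM. XCL1 attracts cross-presenting dendritic cells. *Xcl1* had its highest level, 584 CPM, in the proliferation cluster, a median of 52.4 CPM over the other 10 clusters and the fourth highest level in cluster 2. The lower value against the other cells together thus came with high levels in a minority of clusters, and without clusters 6, 8, 9, 10 and 11 the ratio turned to 0.63. *Ifng*, the gene for interferon-γ, was at 116 against 54.4 CPM (0.97), beside 119 CPM in cluster 11.

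Chemokine receptors had a list median of 0.93, with 4 of 9 tested past 2-fold and none lower. *Ccr2*, which guides cells to inflamed tissue, was at 31.4 CPM (26.6 to 36.9) against 4.22 CPM, with 36.1 CPM in cluster 11, and cluster 2 held 56.4% of its UMIs in the library. *Cxcr6* was at 103 against 36.7 CPM and *Cxcr3*, a receptor for interferon-induced chemokines, at 317 against 146 CPM (1.07, or 0.87 without clusters 6, 8, 9, 10 and 11). Cluster 2 ranked first of the 11 clusters for *Cxcr3* and next to cluster 9 for *Cxcr6* (128 CPM). *Cx3cr1*, a receptor of long-lived effector cells, was low everywhere, at 11.6 CPM in cluster 2, 13.7 CPM in cluster 9 and a median of 1.64 CPM over the 10 clusters, with a ratio of 0.93 against all other cells and 1.06 without clusters 6, 8, 9, 10 and 11.

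For NK receptors and their adaptors the median was 0.74 (1.21 without clusters 6, 8, 9, 10 and 11), with 2 of 7 tested past 2-fold and all 7 above 0. The 2 were *Klrk1*, itself a marker of the label, and *Klrc1*. *Klrc1*, which encodes the inhibitory receptor NKG2A, was at 74.2 against 24.9 CPM and level with cluster 9 (73.3 CPM). *Klrg1*, a marker of short-lived effector cells, had 43 UMIs or 9.06 CPM against 0.953 CPM. Of the genes that define NK cells, *Ncr1* was at 18.8 CPM (15.1 to 23.1) against 0.440 CPM, *Klrb1c* at 12.2 against 1.03 CPM and *Klra4* at 11.8 against 0.733 CPM. Cluster 2 held 209 UMIs of the 4 NK genes, 77.1% of all those in the library, and 14.8% of the library's UMIs. Cluster 9, with 436825 UMIs in all, had a higher level of *Ncr1* than cluster 2. Against cluster 9 the 3 NK genes tested had a median ratio of 0.21 (-0.09 to 0.83), none past 2-fold. The summed level of the 4 NK genes was 44.0 CPM in cluster 2 and 0 to 32.0 CPM in the other 10 clusters, highest in cluster 9 from 14 UMIs. It was 65.5 CPM in the marker-rich cluster of the 12-week spleen. *Cd3e*, of the T cell receptor complex, was at 1302 CPM in cluster 2 against 1002 CPM. Without values per cell, a few NK cells and T cells with NK receptors cannot be told apart, and their part in the cytotoxic genes was not tested.

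Of 7 inhibitory receptors tested, 1 was past 2-fold and the list median was 0.72. That gene was *Tigit*, at 70.4 CPM (63.0 to 78.4) against 18.6 CPM, with 105 CPM in cluster 11 and 64.1 CPM in cluster 9, whose interval overlapped. *Pdcd1* was at 57.3 CPM (50.7 to 64.6) against 30.8 CPM (0.72), below 75.5 CPM in cluster 9 and 61.4 CPM in cluster 11. *Lag3* was at 145 against 106 CPM (0.42). *Havcr2*, which encodes TIM-3, had 9 UMIs in the cluster, or 1.90 CPM. Against all other cells *Tigit* thus differed more than *Pdcd1*, the gene of a protein on which all cells had been sorted.

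Effector and exhaustion transcription factors had a median of 0.62, and 3 of 13 were higher past 2-fold. *Tbx21*, which encodes T-bet, ranked first at 76.3 CPM (68.6 to 84.6) against 30.8 CPM, and *Id2*, which holds effector cells in their state, ranked first at 254 against 115 CPM. The third was *Rora*, at 46.6 against 16.8 CPM (1.08). *Zeb2*, a partner of T-bet in terminal effector cells, was at 18.3 against 5.50 CPM (0.87), short of 2-fold. *Eomes* (75.9 against 72.4 CPM) and *Tox* (81.6 against 70.8 CPM), both linked to memory or exhaustion, had ratios of 0.06 and 0.18. T-bet and ID2 transcripts thus differed and those of EOMES and TOX hardly did. Without clusters 6, 8, 9, 10 and 11, *Tbx21* (0.98), *Id2* (0.97) and *Rora* (0.91) were short of 2-fold and *Zeb2* was past it (1.10).

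The list of S100, annexin and galectin genes had a median of 0.84, with 11 of 12 above 0. *S100a4* was at 292 CPM (277 to 308) against 72.7 CPM, and at 6.44 to 120 CPM in the other 10 clusters, so that cluster 2 stood clear of each. *S100a6* was at 1186 against 372 CPM, with 895 CPM in cluster 9. *Lgals3*, which encodes galectin-3, was at 94.4 against 27.5 CPM, with its highest level in cluster 10 and the third highest in cluster 2. Both S100 genes encode calcium-binding proteins of motile cells, and with *Lgals3* they made up the 3 genes of this list past 2-fold. *Serpina3g*, a protease inhibitor induced in activated T cells, was at 127 against 44.1 CPM.

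Naive and memory genes went the other way, with a median of -0.56, 4 of 13 lower past 2-fold and 11 below 0. *Ccr7*, a receptor for lymph node entry, was lowest of the 11 clusters in cluster 2, at 92.9 CPM (84.5 to 102) against 196 CPM, and did not reach the 2-fold count, which it passed without clusters 6, 8, 9, 10 and 11 (-1.07). The other clusters ranged from 136 CPM in cluster 8 over a median of 172 to 441 CPM in cluster 11. *Lef1* (74.6 against 190 CPM), *Satb1* (29.1 against 94.1 CPM) and *Igfbp4* (0.421 against 19.4 CPM, 2 UMIs in cluster 2, ratio 0.0218 with a counting interval of 0.00263 to 0.0790) were among the genes past 2-fold. *Tcf7*, which encodes the memory factor TCF-1, differed less, at 164 against 215 CPM (-0.37).

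The survival receptor gene *Il7r* was at 454 against 329 CPM (0.45) and *Klf2*, a factor that keeps T cells in the circulation, at 1377 against 1090 CPM (0.33). Both were lowest in cluster 6, at 54.0 and 371 CPM, and without clusters 6, 8, 9, 10 and 11 both ratios were 0.08. The egress list had a median of 0.23 against all other cells and -0.03 in that setting. *Lef1* and *Satb1* were among the 14 lower genes also without clusters 6, 8, 9, 10 and 11.

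Proliferation genes had a median of -1.46, and 7 of 9 were lower. *Mki67* was at 5.69 against 43.6 CPM (-1.77) and *Stmn1* at 25.5 against 157 CPM (-2.23). Without clusters 6, 8, 9, 10 and 11 their ratios were 0.08 and 0.05. Without the proliferation cluster among the other cells the list median turned to 0.12, so the lower values came with that cluster. Antigen receptor response genes had a median of -0.03, of which only *Nr4a1*, a rapid sensor of receptor signals, was lower past 2-fold, at 6.53 against 27.8 CPM, the lowest of the 11 clusters. It was highest in cluster 6 (59.1 CPM), and without clusters 6, 8, 9, 10 and 11 its ratio was -0.68, short of 2-fold. The interferon-stimulated list (median -0.15, or -0.46 without clusters 6, 8, 9, 10 and 11) had no gene past 2-fold in either direction.

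Of other cell types, B cell genes summed to 179 CPM in cluster 2, the tenth of 11 clusters, where the range over the others was 164 to 20591 CPM. Myeloid genes summed to 12.4 CPM, erythroid genes to 27.8 CPM and neutrophil genes to 5.27 CPM (25 UMIs, over 5 times the median of 0.565 CPM elsewhere). Regulatory T cell genes stood at 35.2 CPM and γδ T cell genes at 39.0 CPM, with 10.8 to 75.5 CPM in the other clusters. All 6 kidney tubule genes were at 0.

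**Figure D3:**
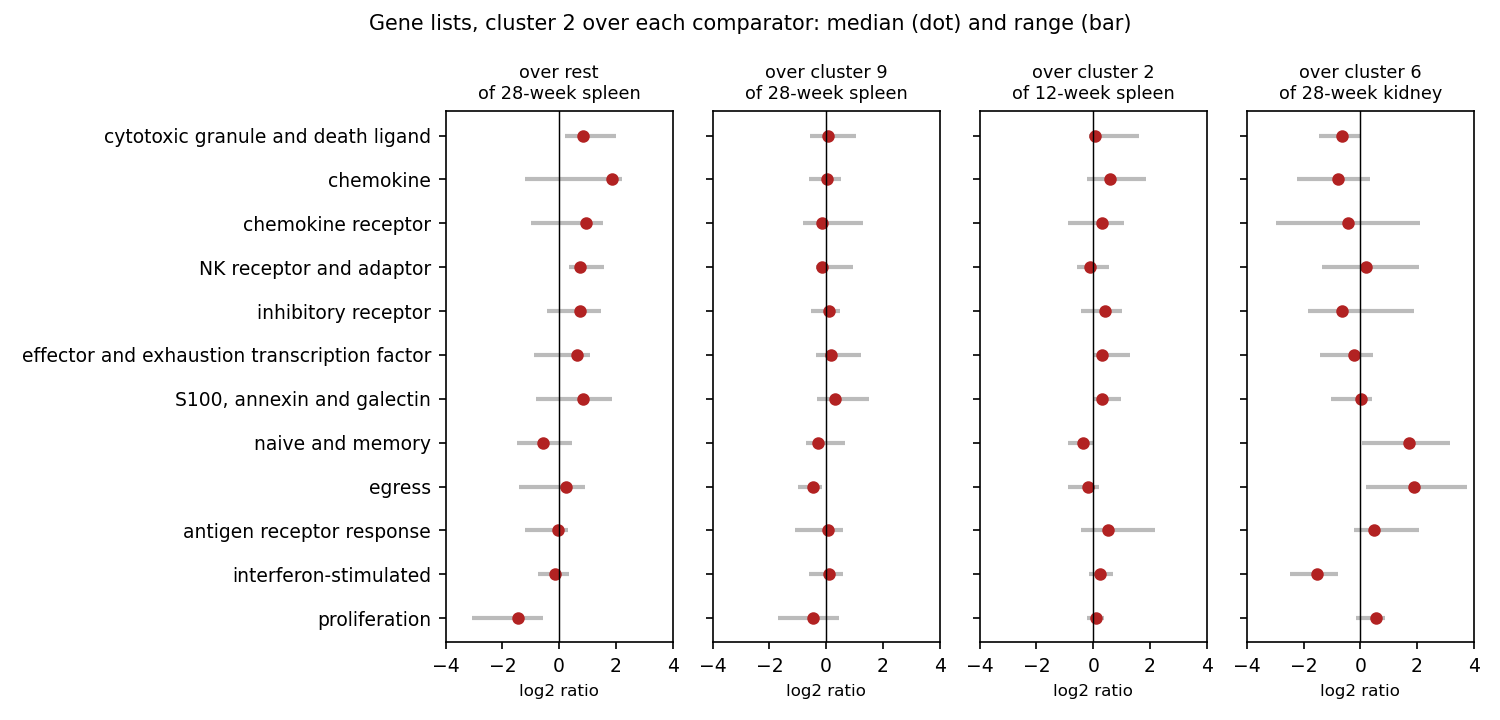
Median log2 ratio (dot) and range over genes (bar) of 12 gene lists for cluster 2 against 4 populations: the other cells of the 28-week spleen, cluster 9 of the 28-week spleen, cluster 2 of the 12-week spleen and cluster 6 of the 28-week kidney. Positive values are higher in cluster 2. Naive, memory and egress genes are near or below 0 within spleen and above 0 against kidney, where interferon-stimulated genes are below 0.

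Cluster 9, with 256 cells and 436825 UMIs, was the nearest by the markers. Against it, 49 of 7461 genes (0.657%) were higher in cluster 2 and 29 (0.389%) were lower, with a median over all genes of -0.06. With totals that left out antigen receptor, immunoglobulin, mitochondrial and ribosomal protein genes, 172 of 7996 genes were higher and 38 lower. With scaling by the median gene, 74 of 7461 were higher and 18 lower. The split therefore depended on the scaling. The granule list had a median of 0.05 and the chemokine list of 0.03, and *Gzmb* was the only marker past 2-fold, at 96.3 against 41.2 CPM (24.4 to 65.1, 18 UMIs). *S100a4* was at 292 against 96.1 CPM (1.51) and *Ccr2* at 31.4 CPM against 6.87 CPM, the latter from 3 UMIs, for a ratio of 4.57 with a counting interval of 1.53 to 22.4.

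All 6 egress genes had ratios below 0 against cluster 9 (median -0.47), with 1377 against 2740 CPM of *Klf2* (-0.99). *Stmn1*, a microtubule regulator of dividing cells, was at 25.5 against 105 CPM, and *Trdc*, the constant region of the δ receptor chain, at 6.95 against 34.3 CPM. The ribosomal protein gene *Rps12* was at 2416 against 806 CPM (1.57). *Gm42418*, which overlaps a ribosomal RNA locus, was at 13292 against 26622 CPM, and cluster 9 had 1706 UMIs per cell where cluster 2 had 4621. The part of depth and ribosomal RNA in these differences was not tested.

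In the 12-week spleen the most marker-rich cluster was also numbered 2, with 1118 cells and 3875727 UMIs. Compared with it, 25 of 7390 genes (0.338%) were higher at 28 weeks and 7 (0.0947%) were lower, with a median over all genes of -0.02. All 7 markers had ratios above 0, and 4 were past 2-fold. The markers were those that label cluster 2 at 28 weeks, and the 12-week cluster was chosen by the same genes. Their direction can follow from that choice and gives no further support. *Ccl4* was at 322 against 81.8 CPM (73.0 to 91.3, log2 ratio 1.85), *Ccl3* at 70.0 against 15.2 CPM (1.66) and *Gzmb* at 96.3 against 24.5 CPM (1.62). *Gzmk* was at 360 against 159 CPM (1.12). *Ccl5* (0.58), *Klrk1* (0.57) and *Fasl* (0.30) differed less. *Ccl4*, *Ccl3* and *Gzmb* thus had the largest marker ratios between these clusters, while *Gzma* (137 against 152 CPM), *Prf1* (89.6 against 87.7 CPM) and *Tbx21* (76.3 against 77.1 CPM) were close.

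The remaining cells of both libraries did not follow the same order. In them the 28-week to 12-week log2 ratio was -0.50 for *Ccl4*, 0.19 for *Ccl3* and 0.65 for *Gzmb*, each smaller than between the compared clusters. It was 2.58 for *Gzmk*, 2.40 for *Ccl5* and 1.42 for *Klrk1*, each larger. Some immediate early genes, which respond within minutes to receptor signals and to handling, were also higher at 28 weeks. *Fos* was at 449 against 91.6 CPM (2.17), *Dusp1* at 170 against 53.2 CPM (1.51) and *Junb* at 1013 against 429 CPM (1.22), and 7 of 15 genes of the antigen receptor response list were past 2-fold. The other cells of the libraries showed 1.78 for *Fos*, 1.46 for *Dusp1* and 1.52 for *Junb*, so the difference was of similar size there. At 28 weeks these other cells still held the marker-rich clusters 9 and 11. At 12 weeks they held cluster 3, with erythroid genes at 37158 CPM, so they were not T cell transcripts alone. *Ifng* was at 116 against 39.2 CPM (1.36), and the other cells showed 1.97. Age and library cannot be told apart, since each age had 1 library.

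Inhibitory receptors had a median of 0.41 between ages, with *Tigit* at 70.4 against 30.2 CPM, *Lag3* at 145 against 84.9 CPM (0.70) and *Pdcd1* at 57.3 against 42.8 CPM (0.35). *Eomes* was at 75.9 against 41.5 CPM (0.74) and *Zeb2* at 18.3 against 7.22 CPM. Naive and memory genes had a median of -0.36, with 10 of 12 below 0 and none past 2-fold. *Ccr7* was at 92.9 against 179 CPM, *Lef1* at 74.6 against 132 CPM and *Il7r* at 454 against 684 CPM, with *Tcf7* close at 164 against 175 CPM. *Trdc* was at 6.95 against 45.2 CPM (-1.70), and the other cells of the libraries showed -0.48. The proliferation list had a median of 0.08.

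In the 28-week kidney the most marker-rich cluster was cluster 6, with 604 cells and 1932633 UMIs. Against it, 95 of 7404 genes (1.28%) were higher in the spleen cluster and 116 (1.57%) were lower. With totals that left out receptor, immunoglobulin, mitochondrial and ribosomal protein genes, 150 of 7945 genes were higher and 106 lower. The median over all genes was -0.04. Granule genes had a median of -0.64 and 11 of 12 were below 0. *Gzmb* was at 96.3 CPM in spleen against 281 CPM (258 to 306) in kidney, *Gzmk* at 360 against 902 CPM and *Fasl* at 49.5 against 143 CPM. *Klrk1* (101 against 109 CPM) and *Ccl3* (70.0 against 52.8 CPM) differed less than 2-fold, as did *Prf1* at 89.6 against 134 CPM. The other cells of the libraries showed larger differences of the same direction, -3.46 for *Gzmb*, -2.37 for *Gzmk* and -1.92 for *Fasl*. The lower values in spleen were therefore not confined to the compared clusters. These other cells still held marker-rich clusters, 9 and 11 in spleen and 1 and 3 in kidney, so cells outside all cytotoxic-like clusters were not examined apart. They also held clusters with transcripts of other cell types. In kidney, B cell genes summed to 25089 CPM in cluster 12 and tubule genes to 3827 CPM in cluster 7. The part of these clusters in the ratios of the other cells was not tested.

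Genes of recirculation were higher in the spleen cluster. *Klf2* was at 1377 against 92.6 CPM (3.76), *Il7r* at 454 against 41.9 CPM (3.16), *Ccr7* at 92.9 against 14.0 CPM (2.10) and *S1pr1*, the receptor that lets T cells leave tissue, at 113 against 29.0 CPM (1.65). The naive and memory list had 9 of 12 genes past 2-fold (median 1.71) and the egress list 4 of 6 (median 1.88). The other cells of both libraries showed 1.66 for *Klf2*, 0.92 for *Il7r* and 1.15 for *Ccr7*. All 3 thus differed less between spleen and kidney in these other cells.

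Interferon-stimulated genes had a median of -1.53, with 9 of 12 lower in spleen and all 12 below 0. *Isg15*, a ubiquitin-like antiviral protein, was at 162 against 908 CPM (-2.42), *Ifit1* at 51.0 against 310 CPM (-2.39) and *Rsad2* at 12.2 against 114 CPM (-2.48). The other cells of the libraries showed -0.47, -0.45 and -0.23 for these genes. This list depended on the kidney cluster chosen: its median was -0.89 against kidney cluster 3, ranked next by the markers, and -0.07 against kidney cluster 1, the largest. The naive and memory median was 1.22 and 1.83 and the egress median 1.59 and 1.78 in the same comparisons.

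*Cxcr6*, a receptor of cells that lodge in tissue, was at 103 CPM in spleen against 870 CPM in kidney (-2.96), *Ccr2* at 31.4 against 188 CPM and *Pdcd1* at 57.3 against 229 CPM (-1.83). The other cells showed -3.30 for *Cxcr6* and -1.53 for *Pdcd1*. *Hspa1a*, a heat shock gene that responds to dissociation, was at 36.7 against 817 CPM (-4.15) and the other cells showed -4.35. Organ, library and digestion cannot be told apart here. All 3 NK cell genes tested had ratios above 0 (0.88 to 0.92) and none was past 2-fold, with *Ncr1* at 18.8 against 5.17 CPM (0.92). Of 7 NK receptor and adaptor genes, 4 were above 0 and 3 below. *Klrc1* was lower in spleen at 74.2 against 204 CPM (-1.35). *Tyrobp*, the NK adaptor DAP12, was at 36.5 CPM against 1.03 CPM from 2 UMIs (ratio 35.2, counting interval 9.61 to 293).

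**Figure D4:**
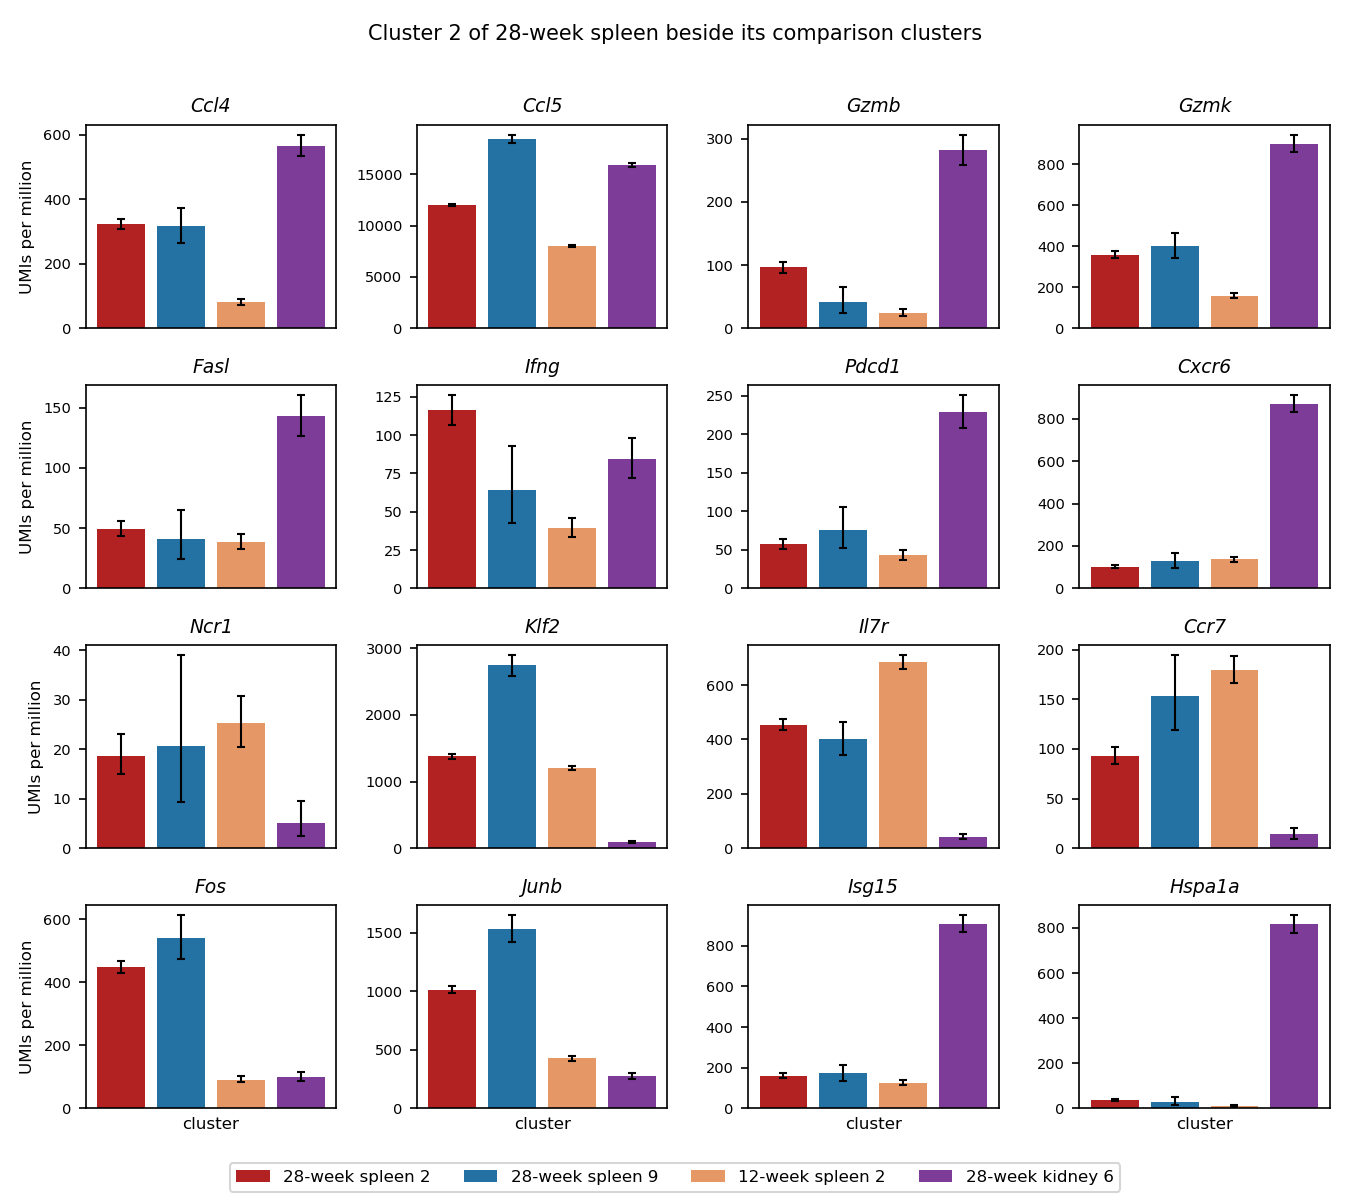
CPM of 16 genes in 4 cytotoxic-like clusters: cluster 2 and cluster 9 of the 28-week spleen, cluster 2 of the 12-week spleen and cluster 6 of the 28-week kidney, with 95% Poisson intervals. Each panel has its own axis from 0. *Klf2* and *Il7r* are lowest in the kidney cluster, where *Gzmb*, *Pdcd1* and *Isg15* are highest.

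The V segments of the T cell receptor β chain were read from the gene counts, not from receptor sequences, so a share is one of transcripts and not of cells. Of 9572 Trbv UMIs in cluster 2, 25.8% were *Trbv13-1* (24.9 to 26.7%), 15.5% *Trbv13-2* (14.8 to 16.3%) and 11.5% *Trbv1* (10.9 to 12.2%). In the other cells these were 21.1%, 19.7% and 13.4%. *Trbv20* was 8.55% against 4.87% and *Trbv15* 0.460% against 1.85%. The same 3 segments led in both, in the same order.

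The effective number of Trbv segments, the inverse of the summed squared shares, was 7.44 in cluster 2 and 7.88 in the other cells, with 6.06 to 9.36 over the other 10 clusters. It was 9.19 in the 12-week cluster, where *Trbv13-1* made up 16.1%, and 5.90 in the kidney cluster, where it made up 27.3%. For the α chain, *Trav3-3* led cluster 2 with 10.2% of 4184 Trav UMIs against 9.89% in the other cells, followed by *Trav5-4* (7.03% against 3.71%) and *Trav4-3* (4.45% against 3.68%). The effective number of Trav segments was 29.5 against 34.2, with 14.6 to 35.7 over the other 10 clusters, the lowest from 98 Trav UMIs. Segments of one family share sequence, and reads could be split among close copies.

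**Figure D5:**
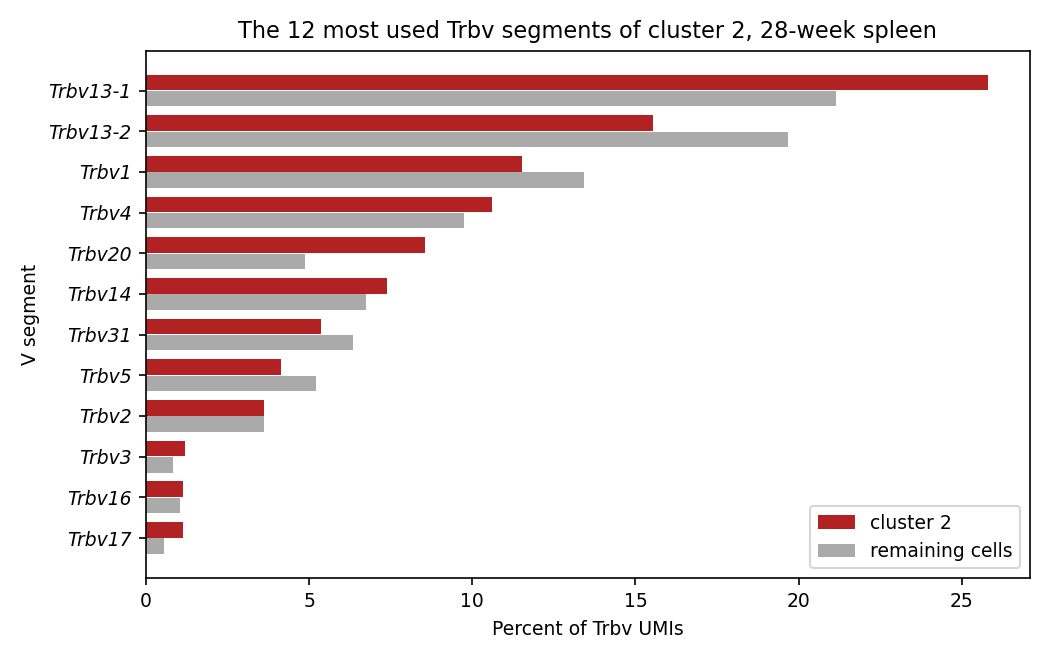
Share of Trbv UMIs (percent) taken by the 12 most used Trbv segments in cluster 2 and in the other cells of the 28-week spleen, drawn without intervals. *Trbv13-1* and *Trbv20* take a larger share in cluster 2, and *Trbv13-2* a smaller one.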

How the data were processed

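The 3 libraries were made with a 5′ droplet kit from sorted PD-1+CD44+CD8+ T cells. The submitters' processing notes name Cell Ranger 2.1.1, R 3.6.1 and GRCm38. The authors deposited, per library, the cluster of each cell and, per gene and cluster, a mean count per cell after their own depth scaling, with log2 fold change and p-value columns of their own comparisons that were not used here. Each mean count deposited by the authors was a whole multiple of 1 step within a tolerance of 0.001 (100% of values), so UMIs per cluster were recovered and divided by the cluster's total to give CPM. These sums were computed in Python 3.11.15 with numpy 2.4.6, pandas 2.3.3 and scipy 1.17.1, and tested on simulated data. Gene symbols were matched to GENCODE M21 for 18974 of 18992 identifiers.

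Other cells were summed over their clusters. Log2 ratios used a pseudocount of 10 CPM and genes with at least 10 CPM on either side. The comparison clusters were, in each library, the one with the highest marker score other than cluster 2 of the 28-week spleen. No test fits 1 library per group, and no doublet removal is stated. Named genes were the 25 highest (at least 50 CPM in cluster 2) and 15 lowest (at least 50 CPM in the other cells) against the other cells, the 10 highest and 10 lowest of each other comparison, the 3 Trbv and 3 Trav segments with the largest shares and genes of 34 lists. The members, lists and markers were chosen with earlier results of these data known. Some list members are not reported here. Alternatives were another pseudocount, filter, total, scaling, weighting and choice of clusters, the last partly chosen after seeing the data.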

Additional observations from a re-analysis of the deposited data

How the results depend on the processing

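The counts of genes past 2-fold moved with the pseudocount and filter. A pseudocount of 1 CPM gave 86 higher and 185 lower of the same 7406 genes against the other cells. In both directions together it gave 546 of 7461 against cluster 9, 92 of 7390 against the 12-week cluster and 467 of 7404 against the kidney cluster. A filter of 50 CPM gave 44 lower genes against the other cells, and 21, 18 and 136 against the 3 clusters. The filter, the weighting and the choice of clusters also change which genes are tested. The number tested in those settings is not given here, so their counts cannot be compared as shares. Weighting other clusters equally gave 178 lower genes, leaving out clusters with markers of other cell types or low UMIs gave 54 lower genes and a share of cells of 18.2%, and leaving out all doubted clusters gave 14. The proliferation median of -1.46 turned to 0.12 without the proliferation cluster and to 0.13 without all doubted clusters. Against cluster 11, which held only 276894 UMIs, 3020 genes differed. Against cluster 9, 210 of 7996 genes differed with totals that left out receptor, immunoglobulin, mitochondrial and ribosomal protein genes. That total moved the median of all genes from -0.06 to 0.05 against cluster 9 and from -0.04 to 0.06 against the kidney cluster. Of 644 list medians under alternatives, 66 changed sign, 5 of them from a value over 0.5 in size. The cause of these shifts was not tested beyond the clusters and totals left out. Depth limits clusters 8, 9 and 11 most. No paired analysis was possible because the tables pool the 4 samples of each group, which may be sequencing lanes of 1 library, and no replicate could be left out for the same reason.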
